A study of Mus musculus with 6 samples.

Results

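Junb, Btg2 and Nab2 are early response genes and are listed here as immediate early genes. Transcription of that class rises within minutes of a signal without new protein synthesis. Junb, Btg2 and Nab2 were taken by name from the deposited liver table, and all 3 are among its 1834 genes and passed the filter on low values. They were chosen by name with their fold change between AAV-Ly6d and AAV-GFP already known, so their levels in the 2 groups are a description, with no test. The study measured liver RNA of mice kept on the same diet. In 1 group wild-type (WT) mice received an adeno-associated virus (AAV, a vector that delivers a gene to liver cells) carrying green fluorescent protein (AAV-GFP, 3 libraries). In the other, labelled Ly6d overexpression, the virus carried Ly6d, which encodes a lipid-anchored surface protein (AAV-Ly6d, 3 libraries). Both groups therefore carry an AAV. The title names MASLD, metabolic dysfunction-associated steatotic liver disease, as the setting. The sources used here do not give the diet, strain, sex, age or time after the virus, nor the promoter that drives the transgene. Whether each library is a separate animal is not stated in the labels, so p-values measure only the spread between these libraries, which may be technical.

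Immediate early genes are transcribed by factors that are already present in the resting cell, and their messages are short-lived. Many of their products are transcription factors or regulators of messages that shape the later response. JunB is a subunit of AP-1, the dimeric factor of JUN and FOS proteins. BTG2 is an antiproliferative protein of the BTG/TOB family that recruits the CCR4-NOT deadenylase to shorten poly(A) tails, and its gene is also a target of p53. NAB2 is a corepressor that binds EGR factors, and its gene is itself induced by EGR1, which makes it part of a feedback loop. Induction by EGR1 that must first be made would not meet the definition of an immediate early gene. In liver these genes respond to growth factors, cytokines, feeding and injury, and to handling of the tissue.

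The promoter sequences of the 3 genes are shown because the genes were higher together in AAV-Ly6d, so that their start regions can be set side by side. Each runs from 250 bases before to 50 bases after the RefSeq start, 5′ to 3′ on the gene's own strand (GRCm38.p6). That start lies 30 bases upstream of the start of the longest GENCODE transcript for Junb, 35 bases upstream for Btg2 and 7 bases downstream for Nab2. Another GENCODE transcript of Nab2 begins 1865 bases upstream of the RefSeq start, at the edge of the annotated span. All 3 genes lie on the minus strand. The Junb window is chr8:84978699-84978998, the Btg2 window chr1:134079106-134079405 and the Nab2 window chr10:127666654-127666953. Capitals mark matches to the motifs named after the sequences.

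Junb: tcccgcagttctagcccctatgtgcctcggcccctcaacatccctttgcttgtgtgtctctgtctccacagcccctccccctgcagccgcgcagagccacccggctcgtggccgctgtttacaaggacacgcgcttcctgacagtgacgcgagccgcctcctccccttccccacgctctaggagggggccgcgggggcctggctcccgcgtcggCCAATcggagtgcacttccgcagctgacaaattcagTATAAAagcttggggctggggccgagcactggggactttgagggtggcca
Btg2: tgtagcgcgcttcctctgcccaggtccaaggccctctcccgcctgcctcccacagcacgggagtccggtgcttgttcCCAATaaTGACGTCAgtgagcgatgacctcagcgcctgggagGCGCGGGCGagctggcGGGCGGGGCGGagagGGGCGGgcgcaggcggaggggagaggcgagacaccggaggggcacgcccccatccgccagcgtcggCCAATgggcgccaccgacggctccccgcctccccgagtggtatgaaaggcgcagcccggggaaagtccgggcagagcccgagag
Nab2: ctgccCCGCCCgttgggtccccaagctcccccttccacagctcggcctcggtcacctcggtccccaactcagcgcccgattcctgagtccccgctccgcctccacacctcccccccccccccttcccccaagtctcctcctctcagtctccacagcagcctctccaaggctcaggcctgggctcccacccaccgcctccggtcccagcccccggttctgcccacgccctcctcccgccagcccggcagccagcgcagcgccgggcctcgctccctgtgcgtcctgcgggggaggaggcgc

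The motifs searched, on both strands, were the cAMP response element TGACGTCA, the AP-1 site TGANTCA, the EGR site GCGNGGGCG, the GC box GGGCGG, the CCAAT box CCAAT, the TATA box TATAAA, the STAT site TTCNNNGAA, the ETS site CCGGAA and the CArG box, which serum response factor binds. The Btg2 window held a cAMP response element that begins 166 bases before the start, a motif found in 1.79% of 32851 promoter windows. It also held an EGR site beginning 131 bases before the start (5.55% of windows), 3 GC boxes (35.7% of windows) and 2 CCAAT boxes (37.4% of windows). The first 2 of those GC boxes share 1 base. Among 47 immediate early genes with a window, 5 held the cAMP response element, 13 the EGR site, 41 a GC box and 21 a CCAAT box. The Junb window held a CCAAT box 36 bases before the start and a TATA box at the RefSeq start itself (13.6% of windows), which is 30 bases before the GENCODE start. Positions in the Junb window therefore depend on which start is used. The Nab2 window held 1 GC box, on the reverse strand. No AP-1, STAT, ETS or CArG letters were found in the 3 windows. These motifs occur in 7.81%, 8.30%, 14.9% and 1.63% of windows, in that order. No searched motif was therefore common to the 3 windows. What they shared was base composition, with 65.3%, 72.0% and 74.0% G and C for Junb, Btg2 and Nab2, against a median of 52.7% over all windows. They held 21, 32 and 22 CpG dinucleotides, where the median window held 7. More CpG dinucleotides than these were held by 23.1%, 8.56% and 21.5% of windows, in that order. A match is a description of letters and not of binding.

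The deposited values are normalised read counts. The 1834 genes held 3248078 to 4359932 reads per library. Total depth is unknown, since these genes are only part of a library. Genes were deposited in nearly the order of their DESeq2 p-values in these libraries (Spearman's rho 0.987 across 1834 genes, where genes are not independent replicates), and the largest such p was 0.0910. The genes of the table were therefore taken to have been picked for differing between the groups. A gene outside it is not analysed here, and counts inside it are not shares of a pathway. Ly6d was at 56.1, 9.68 and 182 with AAV-GFP, far under its levels with AAV-Ly6d (3181, 1799 and 3275), as labelled. AAV-GFP replicate 2 stood apart from the other libraries. Apob, a hepatocyte lipoprotein gene, took 20.1% of the reads that this library held in the 1834 genes, against 4.49% to 6.41% in the other 5 libraries. The first principal component score of AAV-GFP replicate 2 was -49.9, where AAV-GFP replicates 1 and 3 scored -15.4 and -18.1. Fold changes printed here that it moved by over 1.5 times are given with and without it.

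Junb, which encodes the AP-1 subunit, was the most abundant of the 3. Its longest transcript has a single exon, and the gene spans 84974484 to 84978718 of chromosome 8 (GRCm38). AAV-GFP replicates 1 to 3 had normalised read counts of 315, 107 and 435, and AAV-Ly6d replicates 1 to 3 had 970, 812 and 869. The AAV-Ly6d libraries lay close together and all above the AAV-GFP libraries, among which replicate 2 was low. The mean was 286 ± 166 (SD, n = 3) for AAV-GFP and 884 ± 80.0 (SD, n = 3) for AAV-Ly6d, which is 3.10 times as much. AAV-Ly6d replicate 2 alone, the lowest of its group, exceeded AAV-GFP replicate 3, the highest, by a factor of 1.87. The log2 fold change on the log2(value + 1) scale was 1.85 (SE 0.47), and it was 1.25 (SE 0.18) without AAV-GFP replicate 2.

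Nab2, the EGR corepressor gene, had the lowest level and the largest difference of the 3. It spans 127660918 to 127668568 of chromosome 10, with 7 exons in its longest transcript. Its normalised read count was 107, 21.5 and 93.7 in AAV-GFP and 242, 394 and 401 in AAV-Ly6d. AAV-GFP replicate 2 was again the lowest, with 20 reads, and no library of a group reached the other group. The mean was 74.2 ± 46.1 (SD, n = 3) for AAV-GFP and 346 ± 89.9 (SD, n = 3) for AAV-Ly6d, which is 4.66 times as much. The log2 fold change was 2.46 (SE 0.58), or 1.74 (SE 0.27) without AAV-GFP replicate 2. From the highest AAV-GFP to the lowest AAV-Ly6d library the level was 2.25 times as high.

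Btg2, the antiproliferative deadenylation factor gene, differed least and was spread differently over the libraries. It spans 134075170 to 134079120 of chromosome 1, with 2 exons in its longest transcript. Its normalised read count was 155, 164 and 259 in AAV-GFP and 407, 704 and 286 in AAV-Ly6d. AAV-GFP replicate 2 was not low here, and the spread lay within AAV-Ly6d, where replicate 2 was high and replicate 3 was only 1.10 times the highest AAV-GFP library. The mean was 192 ± 57.8 (SD, n = 3) for AAV-GFP and 466 ± 215 (SD, n = 3) for AAV-Ly6d, which is 2.42 times as much. The log2 fold change was 1.21 (SE 0.37). It was 1.11 without AAV-GFP replicate 2 and 0.86 (SE 0.33) without AAV-Ly6d replicate 2.

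**Figure D1:**
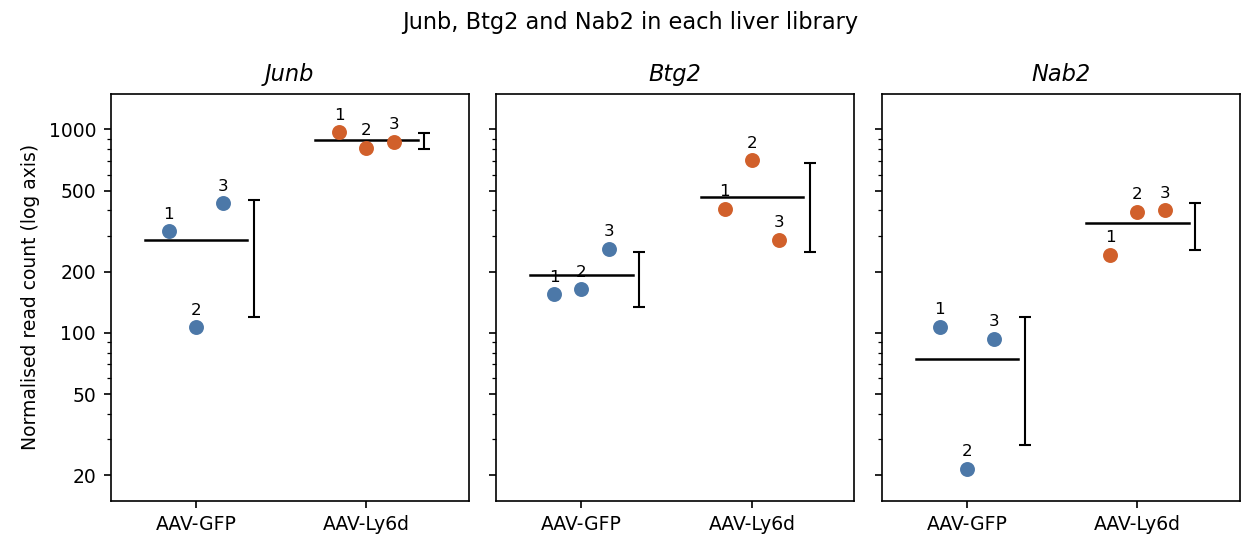
Normalised read count (log axis) of Junb, Btg2 and Nab2 in each library, with AAV-GFP in blue and AAV-Ly6d in orange. Digits give the replicate, horizontal lines the group mean and bars its SD (n = 3). AAV-GFP replicate 2 is low for Junb (107) and Nab2 (21.5) but not for Btg2 (164).

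Among the 1780 tested genes, 626 (35.2%) had every AAV-Ly6d library above every AAV-GFP library, as these 3 did, and 84.5% had no overlap in either direction, so that the absence of overlap does not set them apart in this table. By log2 fold change Nab2 ranked 30, Junb 67 and Btg2 154 from the top, where the median tested gene was at -0.67. Rescaling the libraries to equal median ratios moved that median to -0.33 and gave 2.80, 2.19 and 1.55 for Nab2, Junb and Btg2. The direction of the 3 genes was the same on both scales.

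The plot of fold changes with each library left out shows which library each gene rested on. Without AAV-GFP replicate 2 the fold of Nab2 on the log scale was 3.34 in place of 5.51, and that of Junb 2.38 in place of 3.59. No other left-out library moved either fold, or that of Btg2, by 1.5 times. The range of the log2 fold change over the 6 left-out libraries was 1.25 to 2.26 for Junb, 0.86 to 1.51 for Btg2 and 1.74 to 2.87 for Nab2.

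**Figure D2:**
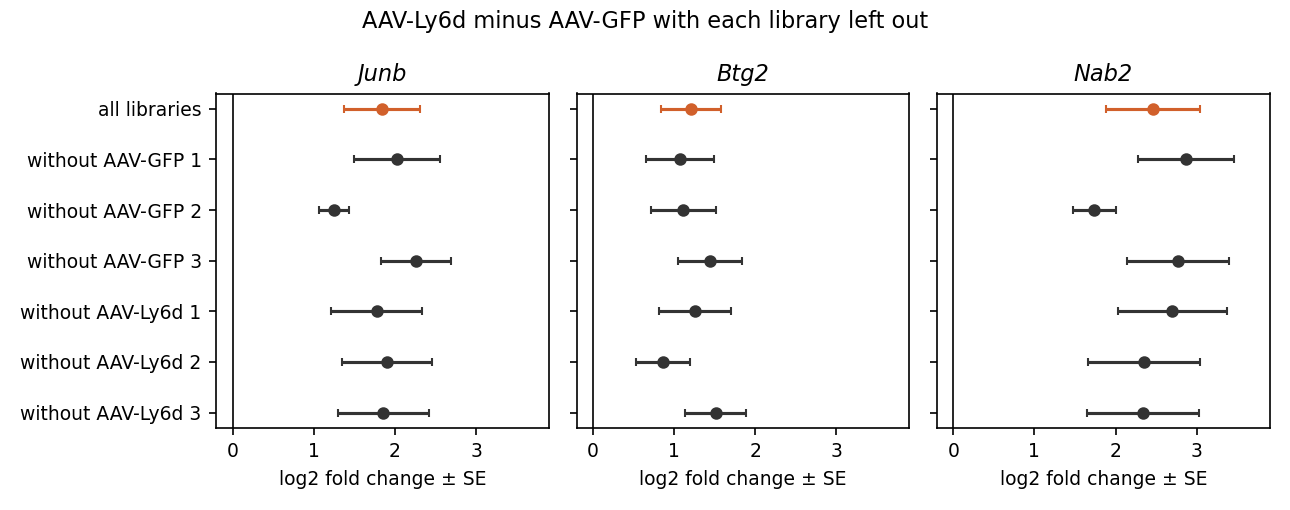
Log2 fold change (AAV-Ly6d minus AAV-GFP, bars SE) of each gene with all 6 libraries (orange) and with each library left out (black). The values of Junb and Nab2 are lowest without AAV-GFP replicate 2 (1.25 and 1.74), and that of Btg2 without AAV-Ly6d replicate 2 (0.86).

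The spread within a group also differed between the genes. In AAV-GFP the highest library held 4.08 times the lowest for Junb and 4.99 times for Nab2, where the median tested gene had a range of 1.75-fold. Of the tested genes 9.94% had a wider range than Junb and 7.58% a wider one than Nab2. For Btg2 the range was 1.67-fold. In AAV-Ly6d Btg2 instead had the widest range of the 3, at 2.46-fold. It was 1.66-fold for Nab2 and 1.19-fold for Junb, against a median of 1.44-fold. On the log2 scale AAV-GFP replicate 2 minus the mean of AAV-GFP replicates 1 and 3 was -2.17 for Nab2, -1.79 for Junb and -0.29 for Btg2. For the median tested gene this difference was 0.17, and 1.24% of tested genes lay lower than Nab2. The part of that library in the differences is shown by the values without it, given with each gene.

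Levels between genes were compared per kilobase of the longest annotated transcript. In AAV-GFP the normalised count per kilobase was 158 ± 91.8 for Junb, 70.2 ± 21.1 for Btg2 and 28.7 ± 17.9 for Nab2 (SD, n = 3). In AAV-Ly6d it was 489 ± 44.2, 170 ± 78.3 and 134 ± 34.8. The order Junb, Btg2, Nab2 held for the means of both groups. Within a library the ratio of Btg2 to Nab2 per length ran from 0.671 to 1.68 in AAV-Ly6d, so these neighbours did not differ beyond their spread there. The ratio of Junb to Btg2 was 3.09, 0.988 and 2.54 in AAV-GFP and 3.61, 1.75 and 4.61 in AAV-Ly6d. Junb and Btg2 were thus level in AAV-GFP replicate 2, and Junb was higher in each of the other 5 libraries.

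Other annotated genes overlap Junb and Nab2 on the opposite strand, and whether counting used strand is not stated. The span of Prdx2, a peroxiredoxin gene, shares 173 exonic bases with Junb. Nab2 shares 40 exonic bases with Stat6, 151 with Nemp1 and 1050 with the antisense gene Gm16229. Reads from such stretches cannot be assigned without strand. The shared bases were counted over the exons of every annotated transcript. The longest transcript of Junb (84976910 to 84978718) lies outside Prdx2, which ends at 84974834. That of Nab2 (127660918 to 127666710) lies outside Nemp1, which starts at 127666901. None of these neighbours is in the table, so their levels are not analysed here. No annotated gene lies within 5 kb of Btg2.

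The other immediate early genes of the table were mostly higher in AAV-Ly6d. The list of such genes holds 63, of which 17 are in the table, and 14 of these are not Junb, Btg2 or Nab2. By limma (adjusted p under 0.05), 9 of the 14 rose, 0 fell and 5 did not pass, among which Klf4 was lower at an unadjusted p of 0.0470. Over all tested genes 43.9% passed, as 15.9% rose and 28.0% fell. Of the 14, 13 had a log2 fold change above 0, against 39.3% of tested genes, and their median was 0.92, against -0.67. After rescaling by the median ratio, 651 genes of the table rose and 290 fell, in place of 283 and 499, and 12 of the 14 rose. Without AAV-GFP replicate 1, AAV-GFP replicate 3, AAV-Ly6d replicate 2 and AAV-Ly6d replicate 3 in turn, 2, 4, 1 and 1 of the 14 rose, and 0 without AAV-Ly6d replicate 1, where 9 had an unadjusted p under 0.05. Without AAV-GFP replicate 2, 10 rose and Klf4 fell. In each of these fits the same number, 13, had a log2 fold change above 0.

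Id1, Id2 and Id3 encode inhibitors of helix-loop-helix transcription factors and are known targets of BMP signalling. Id1 had the largest rise of the 14, from 90.0, 63.5 and 61.6 in AAV-GFP to 198, 200.3 and 452 in AAV-Ly6d (log2 fold change 1.88, limma adjusted p = 0.0287). AAV-Ly6d replicate 3 was the highest, and the groups did not overlap. Id2 and Id3 rose by 0.76 and 0.83.

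Pim1, a cytokine-induced kinase gene, and Plk3, a stress-responsive polo-like kinase gene, rose as well. Pim1 was 119, 52.7 and 207 in AAV-GFP and 353, 257 and 355 in AAV-Ly6d (1.53, limma adjusted p = 0.0414). Plk3 was 630, 533 and 721 in AAV-GFP and 1557, 2152 and 1036 in AAV-Ly6d (1.28, limma adjusted p = 0.0324). Pim1 was low in AAV-GFP replicate 2, as Junb was, whereas Plk3 was highest in AAV-Ly6d replicate 2, as Btg2 was. When DESeq2, run on the recovered reads, was adjusted for 55450 annotated genes, it called 117 genes of the table (6.38%) and 2 of the 14, Id1 (adjusted p = 0.00397) and Plk3 (adjusted p = 0.0212). Limma with that adjustment called 1 gene of the table and 0 of the 14, of which 11 had an unadjusted p under 0.05.

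Regulators of messages and transcription made up the rest of the rises. Zfp36l2 and Zfp36l1, whose products speed the decay of AU-rich messages, rose by log2 fold changes of 1.11 and 0.59. Maff, a small MAF protein gene of the basic leucine zipper class, rose by 1.01 and Csrnp1, a nuclear protein gene, by 0.68. The genes that did not pass were Egr1 (1.28), the Notch effector gene Hes1 (1.10, or 0.50 without AAV-GFP replicate 2), Ier2 (0.48), the circadian repressor gene Bhlhe40 (0.43) and the zinc finger factor gene Klf4 (-0.99). Of these Ier2, Bhlhe40, Hes1 and Klf4 were named after their values were seen.

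**Figure D3:**
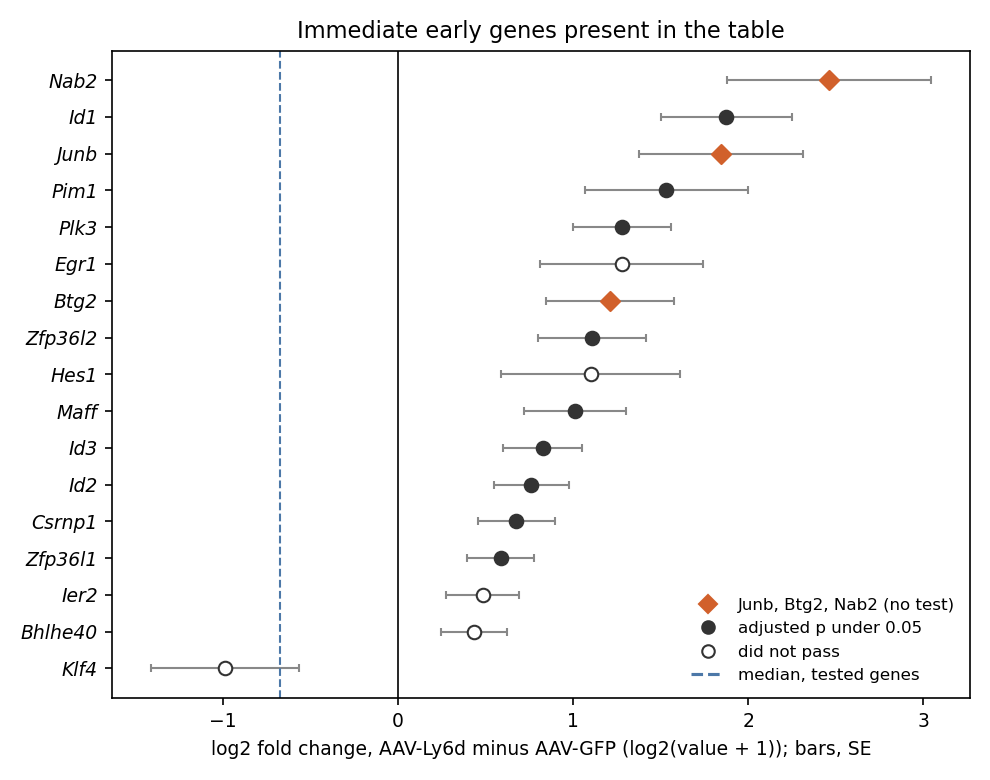
Log2 fold change (AAV-Ly6d minus AAV-GFP, bars SE) of the 17 immediate early genes of the table. Diamonds mark Junb, Btg2 and Nab2, which have no test, filled circles the 9 genes that passed limma and open circles the 5 that did not. The dashed line is the median of the tested genes (-0.67), and Klf4 alone lies below 0.

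AAV-GFP replicate 2 was the lowest AAV-GFP library for 10 of the 14 genes, against 35.8% of tested genes, and for Junb and Nab2. That share covers genes of both directions, of which 39.3% had a log2 fold change above 0. The share among higher genes alone was not computed, so the count does not set the 14 apart. The median log2 fold change of the 14 was 0.72 without AAV-GFP replicate 2, in place of 0.92. The part of that library in the list's difference is given by these values.

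**Figure D4:**
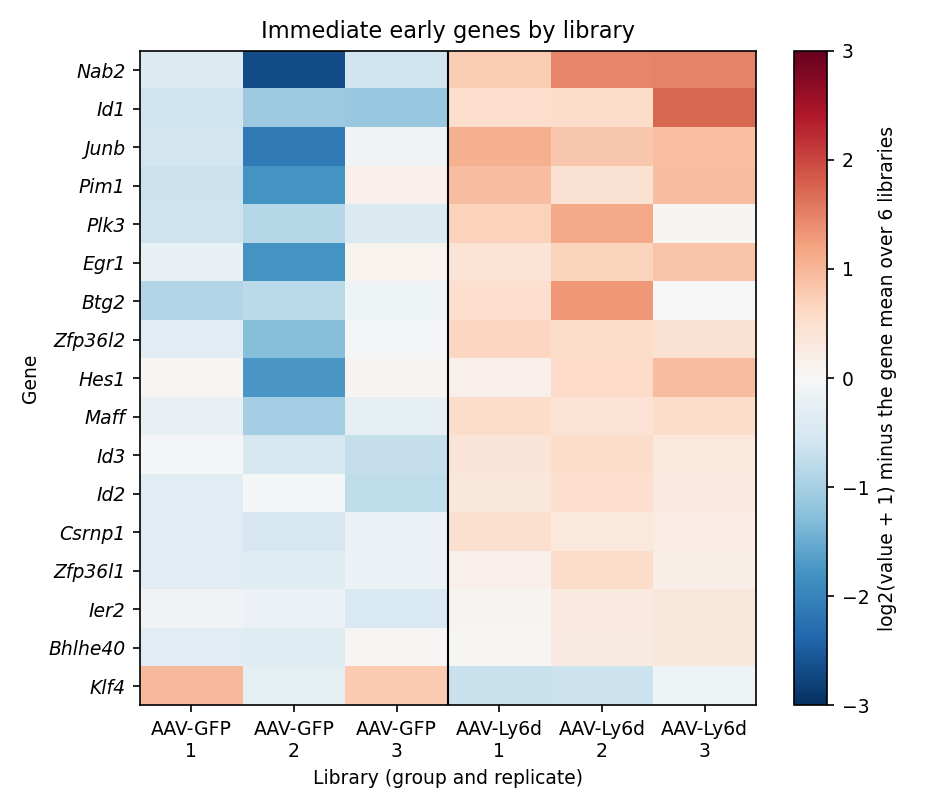
Heat map of log2(value + 1) minus the gene's mean over the 6 libraries, for the 17 immediate early genes. Nab2, Junb, Pim1, Egr1 and Hes1 are darkest blue in AAV-GFP replicate 2. Btg2 and Plk3 are among the genes whose own reddest library is AAV-Ly6d replicate 2.

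The partners of each protein were looked up in lists of their own. Of 19 listed AP-1 subunits 3 are in the table. Beside Junb these were Maff, which rose, and Maf, a large MAF factor gene, which fell by 0.63 on the log2 scale (limma adjusted p = 0.0446). After rescaling Maf did not pass (-0.29, adjusted p = 0.235 in limma). Neither passed without any one of the libraries other than AAV-GFP replicate 2. Nor did either pass in DESeq2 adjusted for all annotated genes (adjusted p = 0.741 for Maf and 0.426 for Maff).

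Of 17 EGR and NAB genes and partners of NAB2, 3 are in the table. Egr1, the factor that NAB2 restrains, was 239, 79.6 and 298 in AAV-GFP and 368, 439 and 505 in AAV-Ly6d. The groups did not overlap and AAV-GFP replicate 2 was again low, but the log2 fold change of 1.28 (SE 0.46) did not pass in limma (adjusted p = 0.0522). It passed without AAV-GFP replicate 2, at 0.70 (adjusted p = 0.0436), and after rescaling, at 1.62 (adjusted p = 0.0397). Rescaling raised the number of rises over the whole table from 283 to 651. Hdac1, a deacetylase of the NuRD complex that NAB2 recruits, was lower and did not pass (-0.61, limma adjusted p = 0.0637).

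Of 19 genes of the BTG/TOB family and the CCR4-NOT complex, 3 are in the table. Btg3, a paralog of Btg2, was 37.7, 34.4 and 41.3 in AAV-GFP and 77.8, 164 and 46.8 in AAV-Ly6d. As for Btg2, replicate 2 was the highest AAV-Ly6d library and replicate 3 the lowest, an order that 283 (15.9%) of tested genes had. Btg3 did not pass (1.14, limma adjusted p = 0.0599), nor did Pabpc1, which encodes the poly(A)-binding protein (0.42, limma adjusted p = 0.0574). Both passed after rescaling, with 1.48 and 0.76, where 651 of the 1780 tested genes rose in place of 283.

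Genes known as readouts or components of the signals that induce early genes were taken from 2 lists. Of 26 listed genes of ERK feedback and ETS factors 6 were tested, and 3 fell, 0 rose and 3 did not pass. Of all tested genes 28.0% fell and 43.9% passed in either direction, so this count does not set the list apart. Dusp6, an ERK phosphatase gene induced by that pathway, fell (-0.78), as did the ETS factor genes Ets1 (-1.34) and Elk3 (-0.98). Phlda1 (1.13), the EGF receptor inhibitor gene Errfi1 (0.47) and the MEK2 gene Map2k2 (0.38) did not pass. After rescaling Ets1 alone of the 3 fell, and 2 genes, Phlda1 and Map2k2, rose. Fewer were called without any one library. The falls were 1, 2 and 1 without AAV-GFP replicates 1, 2 and 3, and 0, 2 and 0 without AAV-Ly6d replicates 1, 2 and 3. Over the whole table the falls were 73, 324 and 82, and 0, 83 and 13, in that order, in place of 499. Without AAV-GFP replicate 1 there was also 1 rise, that of Phlda1. DESeq2 adjusted for all annotated genes called 1 fall, that of Ets1 (adjusted p = 0.00135), and 75 falls over the table. Dusp6 and Elk3 did not pass in DESeq2 with that adjustment (adjusted p = 0.269 and 0.962).

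Of 28 genes of the interleukin-6 and STAT3 response, which also induces Junb, 5 were tested and all were higher. Over all tested genes 39.3% had a log2 fold change above 0 and 15.9% rose. Hamp, which encodes the iron hormone hepcidin (1.77), the receptor gene Il6ra (0.96) and Bcl3 (1.08) rose. Socs3, the feedback inhibitor that STAT3 induces, was 126, 25.8 and 113 in AAV-GFP and 340.2, 207 and 168 in AAV-Ly6d. Its log2 fold change of 1.65 did not pass (limma adjusted p = 0.0519) and was 0.93 without AAV-GFP replicate 2. Itih3, an inter-alpha-trypsin inhibitor gene, did not pass (0.47). After rescaling all 5 rose, where 651 of the 1780 tested genes rose in place of 283. Without AAV-GFP replicates 1, 2 and 3 in turn 1, 2 and 2 rose, and without any one AAV-Ly6d library 0. DESeq2 adjusted for all annotated genes called 1 of the 5 higher, Hamp (adjusted p = 0.0393), and 42 genes of the table. Il6ra and Bcl3 did not pass in DESeq2 with that adjustment (adjusted p = 0.450 and 0.643).

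Of 26 p53 targets 5 are in the table, Btg2 among them. Of the other 4, Bbc3, which encodes the cell death protein PUMA, rose (1.66), Trp53inp1 (-1.14) and the receptor gene Eda2r (-1.40) fell, and Ccng1 did not pass (-0.62). Over all tested genes 15.9% rose and 28.0% fell. When AAV-Ly6d replicates 1, 2 and 3 were left out in turn 0 of the 4 passed. In these fits 0, 104 and 19 genes of the table passed, in place of 782. Leaving out AAV-GFP replicate 1 removed the call of Bbc3, and 1 rise and 1 fall were left without AAV-GFP replicate 2 or replicate 3. DESeq2 adjusted for all annotated genes called 0 rises and 1 fall, that of Trp53inp1 (adjusted p = 0.00482). Bbc3 and Eda2r did not pass in DESeq2 with that adjustment (adjusted p = 0.411 and 0.409). Of 29 genes of the cell cycle, a process that BTG2 is known to restrain, 5 were tested. Ccnd2, a cyclin D gene (-1.66), and E2f2 (-1.55) fell, where 28.0% of all tested genes fell. Ccne1 (1.42), Cdk6 (-0.82) and the proliferation marker gene Mki67 (-0.87) did not pass. The value was 2.01 for Ccne1 without AAV-Ly6d replicate 3 and -0.22 for Cdk6 without AAV-GFP replicate 2. Ccne1 and E2f2 were low, at 3.38 to 30.9 and 2.18 to 22.6. After rescaling Ccne1 rose and Ccnd2 alone fell, where 651 genes of the table rose and 290 fell. Without any one AAV-GFP library 1 gene fell, and without any one AAV-Ly6d library 0. Of the cell cycle genes, DESeq2 adjusted for all annotated genes called 1, as Ccnd2 fell (adjusted p = 0.0133) and E2f2 did not pass.

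Cell type markers differed between the same groups. Of 12 listed hepatocyte markers 5 are in the table, and 4 of them were higher in AAV-Ly6d. The apolipoprotein gene Apoa1 (1.12), the transcription factor gene Hnf4a (0.65) and the tyrosine aminotransferase gene Tat (1.19) rose, while Serpina1a (0.41) and Apob (-0.61, or 0.03 without AAV-GFP replicate 2) did not pass. These 5 were named after their values were seen. Without AAV-GFP replicate 2 the count of rises was again 3, and without any other single library it was 0, with 3 at an unadjusted p under 0.05 in each of those fits. Rises over the whole table were 283 without AAV-GFP replicate 2 and 0 to 61 without any other single library. DESeq2 adjusted for all annotated genes called 0 of the 5 hepatocyte markers. The summed level of the 5 markers was 331782 to 835348 in AAV-GFP and 421017 to 454933 in AAV-Ly6d, and the highest sum, that of AAV-GFP replicate 2, was mostly Apob (743167). In bulk liver, fewer cells of a type and less RNA per cell cannot be told apart. Of 17 endothelial markers 9 were tested and all 9 fell, with a summed level of 7230 to 11625 in AAV-GFP and 2687 to 3351 in AAV-Ly6d. Of 17 stellate and fibroblast markers 10 were tested and 7 fell, with sums of 3763 to 5373 and 1156 to 2609. Beside these counts of markers, 28.0% of all tested genes fell, 15.9% rose and 39.3% had a log2 fold change above 0. Without AAV-Ly6d replicate 3, 2 endothelial and 0 stellate markers fell, and without AAV-Ly6d replicate 1, 0 of either did, with 9 and 6 at an unadjusted p under 0.05. Without AAV-GFP replicates 1, 2 and 3 in turn, 3, 4 and 3 stellate markers fell. In DESeq2 adjusted for all annotated genes all 9 endothelial markers and 3 of the 10 stellate markers fell, where 75 genes of the table fell. No tested marker of these lists was at 0 in any library. Both lists were lower, and 4 of the 5 hepatocyte markers higher, where Junb, Btg2 and Nab2 were higher. Of 16 macrophage and 10 neutrophil markers 0 are in the table. Of 16 lymphocyte markers it holds Gzmb (0 to 3.87 in AAV-GFP and 3.89 to 17.9 in AAV-Ly6d), and of 10 cholangiocyte markers Sox9 (33.4 to 64.1 and 102 to 148). Of 8 erythroid markers 5 are in the table, with sums of 2708 to 5863 and 1898 to 2850. The part of these cells in the differences of the 3 genes was not tested.

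The genes whose profiles were most like each of the 3 were found by the root mean square difference between log2(value + 1) profiles over the 6 libraries, each centred on its own mean. The search covered 864 named genes whose mean value reached 209, the median over tested genes. Nearest to Junb were Pim1 (0.22), the innate immune gene Nlrp12 (0.25), the adhesion scaffold gene Sorbs3 (0.29) and Crcp (0.32), where the median tested gene was at 1.51. Nearest to Btg2 were Plk3 (0.19), the ephrin ligand gene Efna1 (0.33), Htatip2 (0.34) and Gnat1 (0.34), against a median of 1.11. Nearest to Nab2 were the hormone gene Fgf21 (0.35), Sorbs3 (0.45), the heat shock gene Hspa1b (0.49) and Junb (0.49), against a median of 1.83. Hspa1b has a near-identical copy with which it can share reads.

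Junb and Nab2 were thus closer to each other than either was to Btg2. The difference was 0.49 between Junb and Nab2, 0.73 between Junb and Btg2 and 1.02 between Btg2 and Nab2. Among the named genes searched, Nab2 ranked 29 and Btg2 143 by nearness to Junb. By nearness to Nab2, Junb ranked 4 and Btg2 125. By nearness to Btg2, Junb ranked 445 and Nab2 523. Each profile holds the difference between groups and the low values of AAV-GFP replicate 2, so that the likeness is a description of 6 libraries. Fgf21, for example, was 99.7, 20.4 and 174 in AAV-GFP and 255, 462 and 362 in AAV-Ly6d. Its log2 fold change was 2.28, and 1.40 without AAV-GFP replicate 2 or 2.92 without AAV-GFP replicate 3. Plk3 followed Btg2 in both groups, with the highest value in AAV-GFP replicate 3 and in AAV-Ly6d replicate 2.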

How the data were processed

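Liver RNA sequencing was compared between 3 AAV-GFP and 3 AAV-Ly6d libraries. The submitters' processing notes name Bowtie 0.12.2 and mm10 with no role. The sources used here do not give the counter, strand setting, normalisation tool or the rule behind the choice of 1834 genes. Deposited values are a signal that is never negative, with the form of reads that the authors divided by a size factor per library: 100% of values were whole multiples of 1 step per library, within 0.001. For AAV-Ly6d replicate 2 this step was 0.997, too near 1 for an automatic test, so its recovered reads were used in the count tests and sums of reads only.

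Identifiers were matched to symbols (1833 of 1834) and to the GENCODE annotation, release M21, on GRCm38. The test was limma 3.58.1 in R 4.3.3 (eBayes with trend), fitted to log2(value + 1) with group as the only term. It covered the 1780 genes that reached a value of 1 in 3 or more libraries, and Benjamini-Hochberg adjustment covered all of them. "Rose" and "fell" mean an adjusted p under 0.05, and this scale makes fold changes of low genes too small. Fits of the recovered reads with edgeR 4.0.16 and DESeq2 1.42.0, and an adjustment for 55450 annotated genes, were added after seeing the data.

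The 3 genes, the 16 lists, the tests and the naming rule were chosen with earlier results of these data known. That rule names list members in the table (the 12 with the smallest p in a longer list), genes within 5 kb and the 4 closest profiles per gene. Since the genes of the table were picked on these same libraries, p-values adjusted within it are too small.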

Additional observations from a re-analysis of the deposited data

How the results depend on the processing

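The log2 fold changes of Junb, Btg2 and Nab2 stayed above 0 in all 14 alternatives run for each, and between 1.25 and 2.26, 0.86 and 1.55, and 1.74 and 2.87. For these 3 genes every AAV-Ly6d library was above every AAV-GFP library. Leaving out a library, or changing the pseudocount, the trend or the block, therefore could not change their direction. Counts of calls depended more on the settings. Limma called 782 genes of the table and 9 of the 14 immediate early genes other than Junb, Btg2 and Nab2. With the replicate number as a block these counts were 48 and 0, with 1127 and 11 genes at an unadjusted p under 0.05. The numbers share no stated origin, and same-numbered libraries did not deviate together (correlations of -0.02, -0.05 and -0.06), so they were not taken as pairs. Leaving out each library gave 0 to 607 genes and 0 to 11 early genes. Both counts were 0 without AAV-Ly6d replicate 1, where 773 and 9 had an unadjusted p under 0.05. An adjusted p under 0.01 left 1 and 0, and limma's adjustment over all annotated genes also left 1 and 0. DESeq2 with that adjustment called 117 and 2, and 1142 and 10 when adjusted within the table. edgeR on the deposited scale called 465 genes and 6 early genes, and the fit without the trend called 548 and 5. Of 845 values of the 47 other named genes under the alternatives, 593 kept their side of the threshold, 210 lost the call, 42 gained it and 0 changed direction. The cause of these differences was not tested. Nab2 rests on 20 to 111 reads in AAV-GFP.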
